A study of Mus musculus with 36 samples.

Results

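The comparison set 3 arrays of right lungs taken 7 days after pneumonectomy (PNX) in 9 month old mice against 3 arrays of the left lungs that had been removed from the same mice at surgery, 6 of the 36 arrays of the series. All mice were female C57BL6. Each array held RNA pooled from 2 animals, and the pools were numbered 16, 17 and 18, so 6 mice stand behind the comparison. The other arrays came from mice of the same strain and sex that were 3 or 9 months old, and whose right lungs were taken 1, 3 or 7 days after PNX. The rule that formed the comparison used the labels only, and it was applied to all genes.

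PNX is the surgical removal of 1 lung, after which the remaining lobes enlarge. The left lung served as the day 0 control of its own mice, and no array of a sham operation was used. The right lung therefore differed from the left in side, in the operation and its aftermath, and in time. Right and left lungs of day 7 also lay on different chips, so these cannot be told apart in the comparison of right with left.

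Growth of the remaining lobes is known to involve division of epithelial, endothelial and mesenchymal cells and the deposition of collagen and elastin, which bear the load of the expanded lung. Entry into S phase is driven by E2F transcription factors, which act on genes of DNA replication. Many genes of mitosis carry CCAAT boxes, which bind NF-Y, together with a short cell cycle element near their start. Alternatively activated macrophages, which in mice express Arg1 and Retnla, accompany repair in the lung.

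Expression is given as log2 of the background corrected and quantile normalized intensity. A gene was called when its Benjamini-Hochberg adjusted p in limma was under 0.05 and its change at least 1.5-fold, and "rose" and "fell" refer to called genes only. Of 45281 probes, 15795 were detected on all 36 arrays, and they stand for 11835 genes. The 75th percentile of signal was 274 to 320 on the right lung arrays and 237 to 297 on the left lung arrays, and 45.9 to 47.4% and 47.7 to 48.8% of probes were detected on them. Array intensity and number, not read depth, limit the precision here, and the median SE of a log2 ratio was 0.14. Lung markers were at the top of the range: Sftpc, the type II pneumocyte surfactant protein, was at 15.46 to 15.52 in right lungs and 15.34 to 15.42 in left lungs. The right lung arrays of day 3 of pools 7, 10 and 12 correlated least with the others of their groups, at 0.976, 0.975 and 0.974. Without them pool 11 alone stands for day 3 of 9 month old mice, so counts from that fit are not given.

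On day 7 after PNX, 2445 of 11835 genes (20.7%) were called, as were 3415 of 15795 probes (21.6%). Of these genes, 1180 (9.97% of the genes tested) were higher and 1265 (10.7%) lower in the right lung. Counts of called list members below are to be read beside these shares, and counts near them are no result about a list. By size, 405 genes rose and 300 fell by at least 2-fold, and 75 rose and 13 fell by at least 4-fold. Over probes, with a change of at least 2-fold required for a call at the same adjusted p, 504 were higher and 514 lower. The sign was the same in all 3 pools for 1171 of the 1180 higher genes and for 1258 of the 1265 lower genes. The right and left arrays did not overlap for 6680 genes (56.4%). The log2 ratios of the pools correlated over genes at 0.757 (pools 16 and 17), 0.774 (16 and 18) and 0.863 (17 and 18), a description in which genes are not independent.

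The most uniform group was that of mitosis. Of 48 genes listed, 21 passed the detection filter and all 21 of those rose, with a median log2 ratio of 2.40 against -0.05 over all genes. The others did not pass because they were undetected on some arrays, and the list is described only over the 21 measured.

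Plk1, a kinase that drives entry into and progress through mitosis, was at 9.60, 9.47 and 9.47 in the right lungs of pools 16, 17 and 18, against 6.55, 7.12 and 6.23 in the left lungs. The 3 right lungs were almost level with each other and far above every left lung, a log2 ratio of 2.87 ± 0.23 (SE, adjusted p = 2.8e-07, 7.33-fold). Cdc20, which activates the ligase that ends metaphase, was at 11.29, 10.80 and 10.89 in right lungs against 8.50, 8.58 and 8.32 in left lungs. Right and left again stood apart, by 2.52 ± 0.17 (adjusted p = 4.5e-08, 5.75-fold), and all 3 of its probes rose. Birc5, the inhibitor of apoptosis survivin, was at 10.20, 9.73 and 9.76 in right lungs against 7.50, 7.59 and 6.90 in left lungs. Pool 16 was the highest of the right lungs and pool 18 the lowest of the left, and the ratio was 2.57 ± 0.17 (adjusted p = 4.5e-08).

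Mki67, which encodes the proliferation antigen Ki-67, was at 10.70, 10.05 and 9.85 in right lungs and at 7.98, 8.11 and 7.14 in left lungs, a ratio of 2.46 ± 0.17 (adjusted p = 5.9e-08). The groups did not overlap. The largest rise of the list was that of Pbk, a mitotic kinase, at 11.04, 10.57 and 10.59 in right lungs against 7.91, 7.72 and 6.84 in left lungs, 3.24 ± 0.24 (adjusted p = 1.3e-07, 9.46-fold). The smallest was that of Ncaph, a condensin subunit, at 0.93. Cdc2a, the mitotic kinase now named Cdk1, rose by 2.71, Prc1, a spindle midzone protein, by 2.69, Kif22, a chromosome motor, by 2.79, and Top2a, the topoisomerase of dividing cells, by 2.40. Foxm1, a transcription factor of mitotic genes, rose by 2.09.

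**Figure D1:**
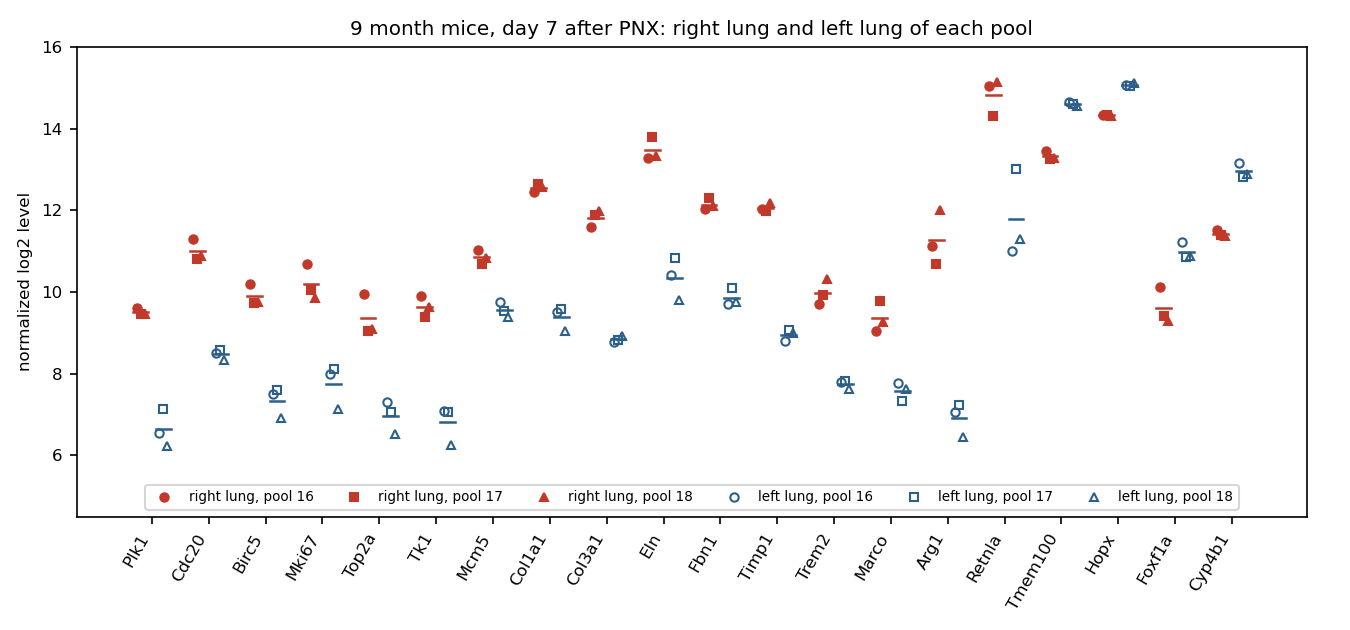
Log2 normalized intensity (y axis) of 20 genes (x axis) on the 6 arrays of the comparison. Filled red symbols are right lungs 7 days after PNX, open blue symbols the left lungs of the same mice, circles, squares and triangles pools 16, 17 and 18, and bars the mean of 3. Mitosis and matrix genes sit higher in all right lungs (Plk1 at 9.47 to 9.60 against 6.23 to 7.12 in left lungs), and Tmem100, Hopx, Foxf1a and Cyp4b1 lower.

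The promoters of the called mitosis genes are shown because these genes moved together. RefSeq promoter windows (build GRCm38.p6, 250 bases before and 50 after the start, 300 in all) were found for 19 of the 21, and exact letters were searched on both strands. CCAAT, which reads ATTGG on the other strand, was present in 14 of the 19 (73.7%), against 37.9% of all 27025 promoter windows and 37.8% of the 8207 tested genes with a window. Of the 17 called genes of DNA replication with a window, described below, 9 (52.9%) held it too. The cell cycle element was searched as TTTGAA and in a second form with A in the place of its G, TTTAAA. It was present in 16 of the 19 (84.2%), against 27.8% and 18.6%. The second form is its own reverse complement, and the first reads TTCAAA on the other strand. A match is a description of letters and not a measured site.

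The 120 bases before the start are given 5′ to 3′ for 6 of these genes, with the CCAAT box and the cell cycle element in capitals as they read on this strand. Cdc20 lies at chr4:118437344-118437463, minus strand. Prc1 lies at chr7:80294331-80294450, plus strand. Cdc2a lies at chr10:69352913-69353032, minus strand, Kif22 at chr7:127042421-127042540, minus strand, Plk1 at chr7:122159315-122159434, plus strand, and Top2a at chr11:99024190-99024309, minus strand.
Cdc20: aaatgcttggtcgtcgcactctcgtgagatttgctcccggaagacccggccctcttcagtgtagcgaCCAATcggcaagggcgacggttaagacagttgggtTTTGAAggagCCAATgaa
Prc1: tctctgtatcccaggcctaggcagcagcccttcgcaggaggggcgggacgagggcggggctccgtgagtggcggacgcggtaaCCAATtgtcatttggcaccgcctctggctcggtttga
Cdc2a: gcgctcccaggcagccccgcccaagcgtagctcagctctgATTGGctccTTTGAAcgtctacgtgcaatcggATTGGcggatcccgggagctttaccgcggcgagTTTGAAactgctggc
Kif22: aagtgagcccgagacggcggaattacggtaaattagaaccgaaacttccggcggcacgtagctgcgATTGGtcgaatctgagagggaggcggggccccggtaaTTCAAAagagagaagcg
Plk1: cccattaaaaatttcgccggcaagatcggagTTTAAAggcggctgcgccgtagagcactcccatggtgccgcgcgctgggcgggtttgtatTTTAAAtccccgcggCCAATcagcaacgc
Top2a: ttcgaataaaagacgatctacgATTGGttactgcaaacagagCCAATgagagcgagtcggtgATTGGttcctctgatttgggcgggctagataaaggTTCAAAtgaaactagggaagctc
Each of the 6 holds CCAAT, and 5 of them, all but Prc1, also hold a cell cycle element in these bases. The 6 were picked by hand and not by a rule, so they give no share. Over the list, 14 of the 19 held CCAAT in the 300 base windows.

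Genes of DNA replication rose less and less uniformly. Of 34 measured, 19 rose and none fell, with a median log2 ratio of 0.87. Tk1, the thymidine kinase of S phase, was at 9.91, 9.38 and 9.62 in right lungs against 7.09, 7.06 and 6.26 in left lungs. No left lung came near a right lung, and the ratio was 2.83 ± 0.28 (adjusted p = 1.9e-06, 7.14-fold). Mcm5 and Mcm6 are subunits of the replicative helicase. Mcm5 was at 11.02, 10.67 and 10.84 in right lungs against 9.76, 9.52 and 9.38 in left lungs, a ratio of 1.29 ± 0.15 (adjusted p = 1e-05). Mcm6 was at 11.03, 10.46 and 10.38 in right lungs against 9.38, 9.19 and 9.23 in left lungs, a ratio of 1.35 ± 0.14 (adjusted p = 2.5e-06). Of the other 2 kept probes of Mcm6, 1 rose by 1.07 and 1 had a ratio of 0.52, which was not called. Both genes were higher in every right lung, and the groups did not overlap.

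Mcm10, which loads the replication machinery, rose by 2.14 ± 0.22, Uhrf1, which guides maintenance of DNA methylation, by 1.92 ± 0.23, and Rrm1, a subunit of ribonucleotide reductase, by 1.00 ± 0.17. Among 16 measured G1 cyclins, E2F factors and inhibitors, 5 rose and 1 fell. E2f1 rose by 0.92 (adjusted p = 0.00035), while the G1 cyclin Ccnd1 had a ratio of 0.13 (adjusted p = 0.48) and was not called. The probes of Cdkn1a, the inhibitor p21, differed. The brightest, which stands for the gene in these counts, had a ratio of 0.41 (adjusted p = 0.20) and was not called, and the other 2 rose by 1.13 and 1.17 (adjusted p = 0.0015 for both).

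E2F letters were searched in the forms TTGGCGC, then TTCCCGC, and also TTCGCGC, on both strands of the same 300 base windows. They were present in 9 of the 17 called replication genes with a window (52.9%) and in 4 of the 19 mitosis genes (21.1%), against 8.21% of all windows and 14.7% of the tested genes with one. The 120 bases before the start were read in 10 of these replication genes, and the 3 that hold these letters there follow, with the letters in capitals. They were chosen for that, and the other 7, among them Mcm5 and Tk1, hold none in these bases. Mcm6 lies at chr1:128359706-128359825 on the minus strand, Uhrf1 at chr17:56303217-56303336 on the plus strand and Rrm1 at chr7:102441575-102441694 on the plus strand.
Mcm6: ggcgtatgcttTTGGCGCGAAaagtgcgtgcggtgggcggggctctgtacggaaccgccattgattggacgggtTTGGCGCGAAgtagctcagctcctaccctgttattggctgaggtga
Uhrf1: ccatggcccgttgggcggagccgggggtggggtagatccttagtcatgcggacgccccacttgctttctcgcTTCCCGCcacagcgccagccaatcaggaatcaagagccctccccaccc
Rrm1: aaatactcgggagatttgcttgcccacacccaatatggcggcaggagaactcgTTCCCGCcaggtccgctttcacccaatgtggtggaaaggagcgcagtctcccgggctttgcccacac
In Mcm6 each run in capitals holds TTGGCGC and, overlapping it, TTCGCGC read on the other strand.

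The interstitial collagens moved as one: all 11 measured of 13 listed rose, with a median of 1.25. Col1a1, a chain of type I collagen, was at 12.45, 12.63 and 12.57 in right lungs against 9.50, 9.58 and 9.05 in left lungs. The right lungs lay close to each other and the left lungs well below them, a ratio of 3.17 ± 0.20 (adjusted p = 3.2e-08, 9.02-fold). Col3a1, the chain of type III collagen, was at 11.59, 11.89 and 11.97 in right lungs against 8.77, 8.82 and 8.92 in left lungs, 2.98 ± 0.22 (adjusted p = 8.6e-08, 7.89-fold). The left lungs were level and the right lungs all higher. Col1a2, the partner chain of Col1a1, rose by 1.74, and Col14a1, a collagen that coats fibrils, was at 9.26, 9.58 and 9.57 in right lungs against 8.11, 7.91 and 8.18 in left lungs, 1.40 ± 0.13 (adjusted p = 1.7e-06). Of 16 measured collagen processing enzymes 5 rose and 1 fell, and of 19 basement membrane genes 7 rose and 1 fell.

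Of 16 measured genes of elastic fibres and crosslinking, 11 rose and none fell, with a median of 0.75. Eln, elastin, was at 13.29, 13.79 and 13.33 in right lungs against 10.42, 10.84 and 9.80 in left lungs. Pool 17 was highest on both sides and no arrays overlapped, at a ratio of 3.12 ± 0.22 (adjusted p = 6.8e-08, 8.67-fold). Fbn1, the microfibril protein fibrillin 1, was at 12.02, 12.29 and 12.11 in right lungs against 9.72, 10.10 and 9.74 in left lungs, 2.29 ± 0.17 (adjusted p = 9e-08). Its arrays showed the same order of pools on both sides. Fbln2, a fibulin of elastic fibres, rose by 1.61, Mfap5, a microfibril associated protein, by 1.61, and Loxl1, a crosslinking enzyme, by 0.83.

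Lox, the lysyl oxidase that crosslinks collagen and elastin, changed less. It was at 11.14, 11.12 and 10.92 in right lungs against 10.17, 10.55 and 10.26 in left lungs, and the groups did not overlap. Its ratio was 0.74 ± 0.26 (adjusted p = 0.032), and the call was lost without pool 16 (0.62, adjusted p = 0.16), pool 17 (0.82, 0.076) or pool 18 (0.77, 0.094). Tnc, the matricellular protein tenascin C, was at 10.94, 10.94 and 10.53 in right lungs against 7.67, 8.49 and 8.33 in left lungs. The left lung of pool 16 was the lowest, and the ratio was 2.64 ± 0.43 (adjusted p = 0.00019). Tnfrsf12a, the TWEAK receptor, was at 10.86, 10.63 and 10.81 in right lungs against 9.66, 10.27 and 9.66 in left lungs, 0.91 ± 0.28 (adjusted p = 0.018). Pool 17 had the smallest difference, and the call was lost without pool 16 (0.75, adjusted p = 0.11) or pool 18 (0.78, adjusted p = 0.11).

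Among matrix proteases and their inhibitors 8 of 17 measured rose and none fell. Timp1, an inhibitor of metalloproteinases, was at 12.04, 11.99 and 12.17 in right lungs against 8.79, 9.07 and 9.00 in left lungs, 3.11 ± 0.23 (adjusted p = 1.3e-07). Both of its probes rose and neither side varied much. Mmp2, a gelatinase, was at 13.30, 13.51 and 13.47 in right lungs against 11.72, 11.75 and 11.89 in left lungs, 1.64 ± 0.14 (adjusted p = 7.2e-07). Mmp14, the membrane protease that activates it, rose by 1.34 and Ctsk, a collagen degrading cathepsin, by 1.40. Of the smooth muscle and contractile genes 3 of 13 measured rose and 1 fell. Tagln, transgelin, rose by 1.09 (adjusted p = 0.0014), while Myh11, smooth muscle myosin, had a ratio of -0.39 ± 0.16 (adjusted p = 0.066) and was not called. Acta2, smooth muscle actin, had 0.31 ± 0.14 (adjusted p = 0.077) by its brightest probe, which was not called. Of its other 3 kept probes 1 rose by 0.66 (adjusted p = 0.0074), and 2 with ratios of 0.70 and 0.27 were not called.

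Macrophage genes rose as a group, 12 of 21 measured and none in the other direction, with a median of 0.74. Trem2, a lipid sensing receptor, was at 9.70, 9.93 and 10.32 in right lungs against 7.79, 7.81 and 7.62 in left lungs. Pool 18 was the highest right lung and the left lungs were level, at a ratio of 2.24 ± 0.18 (adjusted p = 2.4e-07, 4.74-fold). Marco, a scavenger receptor, was at 9.06, 9.77 and 9.28 in right lungs against 7.77, 7.32 and 7.63 in left lungs, 1.79 ± 0.18. All right lungs were higher than all left lungs. C1qa, which begins the classical complement pathway, was at 9.67, 9.47 and 9.60 in right lungs against 8.10, 8.01 and 7.97 in left lungs, 1.55 ± 0.16 (adjusted p = 3.9e-06). Gpnmb, a lysosomal glycoprotein, rose by 1.40, while Cd68, a lysosomal marker of macrophages, had a ratio of 0.52 (adjusted p = 0.0012), under 1.5-fold.

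Of 12 measured genes of alternative macrophage activation, 8 rose and none fell, with a median of 0.96. Arg1, arginase 1, was at 11.12, 10.69 and 12.02 in right lungs against 7.05, 7.24 and 6.45 in left lungs. Pool 18 had both the highest right lung and the lowest left lung, and the ratio was 4.36 ± 0.35 (adjusted p = 2.4e-07, 20.5-fold). Retnla, a secreted resistin-like protein, was at 15.04, 14.32 and 15.15 in right lungs against 11.01, 13.02 and 11.30 in left lungs. The left lung of pool 17 stood above the other left lungs and its right lung below the other right lungs, without overlap, at a ratio of 3.06 ± 0.33 (adjusted p = 4.4e-06, 8.32-fold). Chi3l3, a chitinase-like protein, rose by 1.15 ± 0.15 and by 1.01 by a second probe, while its remaining kept probe had a ratio of 0.54 and was not called. In whole lung RNA, more cells of a type and more RNA per cell cannot be told apart.

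Complement genes followed, 10 of 23 measured higher and 1 lower. Cfb, factor B of the alternative pathway, was at 11.07, 11.10 and 11.45 in right lungs against 8.90, 8.87 and 9.24 in left lungs, 2.20 ± 0.14 (adjusted p = 2.3e-08). Pool 18 was highest on both sides. C3, the central component, was at 14.89, 14.88 and 14.99 in right lungs against 13.53, 13.76 and 13.82 in left lungs, 1.21 ± 0.13 (adjusted p = 5.2e-06). C4b, of the classical pathway, rose by 1.63, and Fcna, the lectin pathway protein ficolin A, by 3.87 ± 0.30 (adjusted p = 1.8e-07). Saa3, an acute phase protein, was at 11.76, 11.70 and 12.25 in right lungs against 7.97, 7.64 and 7.70 in left lungs, 4.13 ± 0.25 (adjusted p = 2.3e-08, 17.5-fold). Over the acute phase and inflammation list the picture was mixed, with 7 of 21 measured higher and 3 lower, and Lcn2, lipocalin 2, had a ratio of 0.36 (adjusted p = 0.11).

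Of 18 measured growth factors, 3 rose and 4 fell, and of 12 receptors 3 fell and none rose, beside 9.97% higher and 10.7% lower over all genes. Igf1, a growth factor of mesenchyme and macrophages, was at 9.32, 9.09 and 9.37 in right lungs against 7.42, 7.54 and 7.51 in left lungs, 1.77 ± 0.18 (adjusted p = 2.8e-06). Its 3 right lungs were level and all higher than the left lungs. Its receptor gene Igf1r moved the other way, at 9.76, 9.65 and 9.44 in right lungs against 10.69, 10.66 and 10.95 in left lungs, -1.15 ± 0.15 (adjusted p = 2.6e-05). Areg, the EGF receptor ligand amphiregulin, was at 10.53, 11.62 and 11.31 in right lungs against 9.53, 9.41 and 8.92 in left lungs, 1.87 ± 0.30 (adjusted p = 0.00018). Pool 16 had its lowest right lung and the highest left lung, without overlap.

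The fibroblast growth factors of the lung mesenchyme that were called were lower. Fgf7 had a ratio of -0.77 ± 0.15 and Fgf1 of -0.82 ± 0.18, with a second Fgf1 probe at -0.45, not called. Fgf10, which drives branching of the developing lung, had -0.68 (adjusted p = 0.00034) but fell short of 1.5-fold without pool 16 (-0.52, adjusted p = 0.0083). The receptor Fgfr3 was at 7.55, 6.90 and 7.06 in right lungs against 9.02, 8.92 and 8.63 in left lungs, -1.69 ± 0.30, with every right lung lower than every left lung. Mdk, the growth factor midkine, rose by 1.03 by 1 of its 2 kept probes, and the other had a ratio of 0.52.

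Of 27 measured TGF-beta and BMP pathway genes 5 rose and 3 fell, beside 9.97% and 10.7% of all genes. Tgfb3, a TGF-beta ligand, was at 10.40, 10.77 and 10.57 in right lungs against 9.18, 9.17 and 9.20 in left lungs. The left lungs were nearly identical and the right lungs all higher, by 1.40 ± 0.12 (adjusted p = 6.3e-07). Tgfb1 rose by 0.68 and Bmp6 had a ratio of -1.17. Fstl1, a follistatin-like secreted protein, was at 11.49, 11.32 and 11.20 in right lungs against 9.32, 9.39 and 9.39 in left lungs, 1.97 ± 0.16 (adjusted p = 2.8e-07). Of 25 measured Wnt pathway genes 4 rose and none fell, led by the secreted antagonist Sfrp1 with 10.24, 10.09 and 10.27 in right lungs against 8.43, 8.01 and 8.19 in left lungs, 1.99 ± 0.13. Of 13 Notch pathway genes 3 fell, and the target Hey1 had the lowest adjusted p, with a ratio of -0.99. The Notch list median was -0.20, 0.17 and -0.09 in pools 16, 17 and 18. Dll1 lost the call without pool 16 or pool 18, and Notch4 without pool 16 or pool 17.

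Transcription factors and signalling genes of lung development gave 3 higher and 7 lower of 35 measured. Sox9, a factor of distal lung progenitors and of cartilage, was at 8.03, 7.91 and 8.35 in right lungs against 6.37, 6.65 and 6.18 in left lungs, 1.70 ± 0.27 (adjusted p = 0.00019). Foxf1a, now Foxf1, a factor of lung mesenchyme and capillaries, was at 10.11, 9.41 and 9.30 in right lungs against 11.22, 10.85 and 10.87 in left lungs, -1.37 ± 0.26 (adjusted p = 0.00064). Its groups did not overlap, and pool 16 was highest on both sides. Tcf21, of lipid-storing lung fibroblasts, was at 11.00, 10.72 and 10.69 in right lungs against 11.84, 11.68 and 11.66 in left lungs, -0.92 ± 0.20. Nkx2-1, the factor that specifies lung epithelium, had a ratio of 0.22 (adjusted p = 0.19).

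Endothelial genes were on the lower side, with 6 of 29 measured lower, none higher and a median of -0.36. Tmem100, a membrane protein of lung capillaries, was at 13.46, 13.26 and 13.28 in right lungs against 14.65, 14.60 and 14.54 in left lungs, -1.27 ± 0.11 (adjusted p = 9.9e-07). All right lungs were lower by more than the spread within either side. Ednrb, the endothelin B receptor, was at 11.64, 11.55 and 11.87 in right lungs against 13.03, 12.67 and 12.72 in left lungs, -1.12 ± 0.14 (adjusted p = 2e-05). Vwf, von Willebrand factor, was at 13.17, 13.13 and 13.28 in right lungs against 13.89, 13.85 and 13.89 in left lungs, -0.69 ± 0.10. Neither gene's groups overlapped. Pecam1, an endothelial adhesion molecule, had a ratio of -0.57 ± 0.15 (adjusted p = 0.0079), and was not called at 1.5-fold, and its second probe had 0.26 (adjusted p = 0.057). Cdh5, VE-cadherin, had -0.13 (adjusted p = 0.39) by its brighter probe, while the other fell by 0.89 (adjusted p = 5.3e-05).

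Alveolar epithelial genes moved in both directions. Of 12 measured type I pneumocyte genes 2 rose and 4 fell. Hopx, a transcriptional cofactor of type I cells, was at 14.34, 14.34 and 14.32 in right lungs against 15.06, 15.04 and 15.12 in left lungs, -0.74 ± 0.11. Both sides were tight and apart. Rtkn2, a marker of these cells, was at 9.45, 9.55 and 8.95 in right lungs against 10.63, 10.76 and 11.00 in left lungs, -1.48 ± 0.28, and its second probe fell too. In the other direction Krt7, a keratin of simple epithelia, rose by 0.95, while Ager, at 15.07, 15.14 and 15.31 in right lungs and 14.81, 14.80 and 14.92 in left lungs, had a ratio of 0.33 (-0.08 by its second probe) and Aqp5, a water channel, of 0.41, neither called.

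Of 14 measured type II pneumocyte genes only Sftpb was called, at 15.03, 15.05 and 14.92 in right lungs against 14.36, 14.24 and 14.18 in left lungs, 0.74 ± 0.12 (adjusted p = 0.00014). It encodes surfactant protein B. Its second probe had a ratio of 0.52, and the first had 0.58 with the mean of the 9 left lungs of 9 month mice as baseline. Of 13 club cell genes 1 rose and 3 fell, and of 25 ciliated cell genes 5 fell and none rose. The ciliated list median was -0.48, -0.23 and -0.14 in pools 16, 17 and 18. Ccdc113, Dnahc5, Dnaic1 and Tekt1 lost the call without pool 16, and Traf3ip1 lost it without pool 17 or pool 18. Scgb1a1, the club cell secretoglobin, was at 15.34, 15.34 and 15.30 in right lungs and 15.49, 15.50 and 15.48 in left lungs. Scgb3a1, another secretoglobin, rose by 0.79, and the call was lost without pool 18 (0.48, adjusted p = 0.092). Its second probe had a ratio of 0.07. Of 16 measured T and NK cell genes 5 fell and 1 rose, with a median of -0.48, and the median was -0.09 in pool 16, -0.58 in pool 17 and -0.64 in pool 18. Cd8b1, a chain of the CD8 coreceptor, had a ratio of -1.02, and Klrd1, an NK cell receptor chain, of -0.82. Of the 5 genes that fell, 3 lost the call when a pool was left out. Cd3e, a chain of the CD3 complex, had -0.58 without pool 17 (adjusted p = 0.075) and -0.44 without pool 18 (adjusted p = 0.15), and the chemokine Ccl5 had -0.51 (adjusted p = 0.18) and -0.54 (adjusted p = 0.16). Nkg7, a granule protein, had -0.77 without pool 17 (adjusted p = 0.063). None of 11 B cell genes was called by its brightest probe, and the list median was 0.21, -0.72 and -0.51 in pools 16, 17 and 18. A dimmer kept probe fell for Cd79b (-1.04, adjusted p = 0.022) and for Fcrla (-0.71, adjusted p = 0.034). The other kept probes of these genes were not called.

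**Figure D2:**
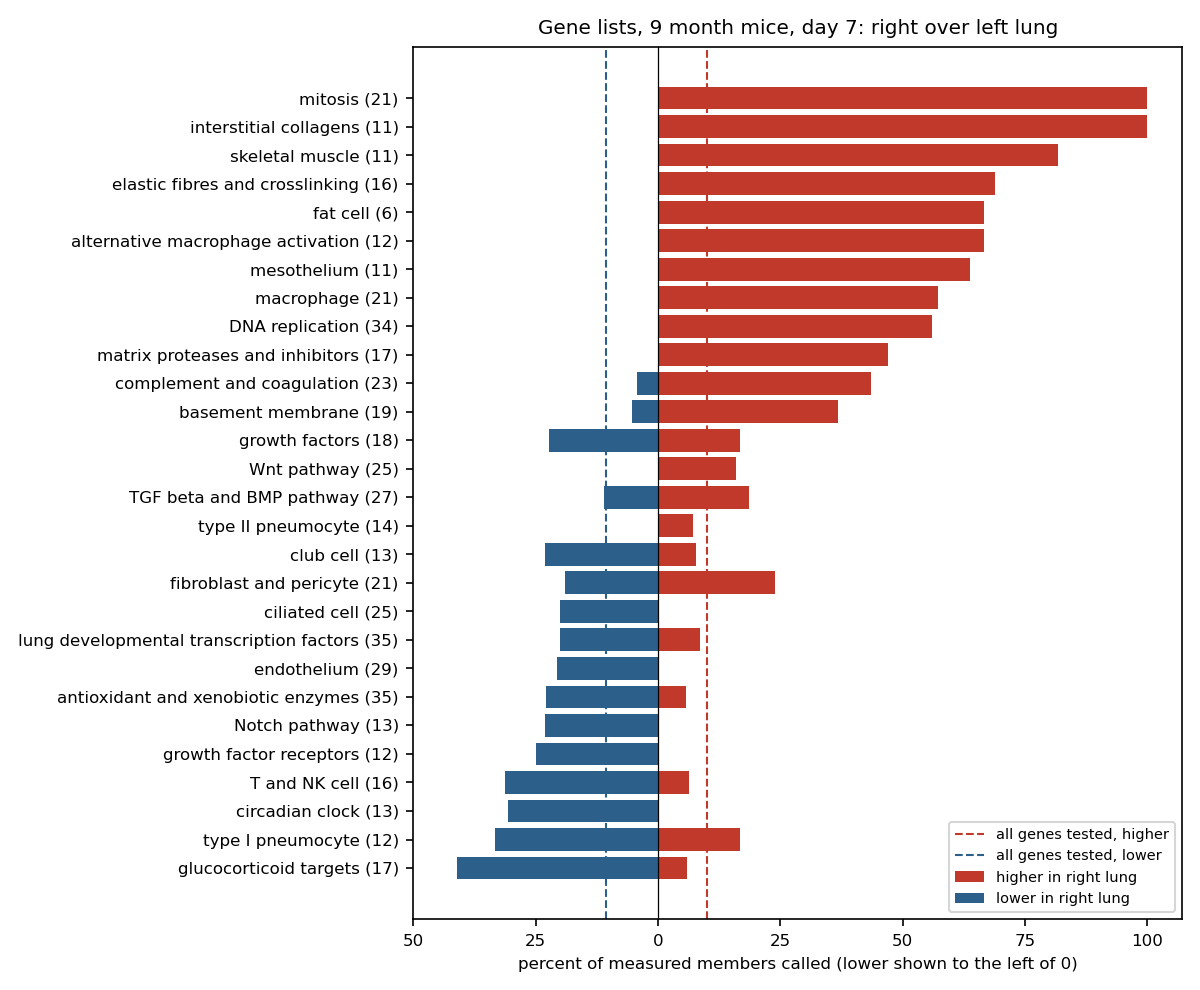
Percent of the measured members of each gene list called higher (right of 0) or lower (left of 0) in right lungs 7 days after PNX than in left lungs of the same 9 month old mice. Dashed lines mark all genes tested (9.97% higher, 10.7% lower). Mitosis and interstitial collagens reach the right edge with every measured member, and endothelium, T and NK cells and glucocorticoid targets extend to the left.

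Enzymes that process foreign compounds and oxidants, which are abundant in lung airway cells, had 8 of 35 measured lower and 2 higher. Cyp4b1, a lung cytochrome P450, was at 11.51, 11.39 and 11.37 in right lungs against 13.17, 12.82 and 12.90 in left lungs, -1.54 ± 0.16 (adjusted p = 3.8e-06). Right lungs were level and all lower. Fmo1, a flavin monooxygenase, had a ratio of -1.29 (-0.57 by its second probe, not called) and Cyp2b10 of -1.09. Of 17 measured glucocorticoid targets 7 fell and 1 rose. Klf9, a Krüppel-like factor, was at 12.84, 12.74 and 12.84 in right lungs against 13.94, 13.50 and 13.65 in left lungs, -0.89 ± 0.15. Dusp1, a MAP kinase phosphatase, had -1.12, and Per1, also a clock gene, was at 9.83, 9.97 and 10.10 in right lungs against 11.49, 11.09 and 11.04 in left lungs, -1.24 ± 0.27 (adjusted p = 0.0019). Mertk, a receptor for the uptake of dying cells, had -1.24 by 1 probe and 0.02 by its other kept probe. Of 13 clock genes 4 fell and none rose. Per2 lost the call without pool 16 or pool 18, and Dbp without pool 17 or pool 18. The hours at which lungs were taken are not given in the sources used here.

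The deepest single decreases belonged to no listed pathway. Lrat, which makes retinyl esters and so stores vitamin A, was at 6.79, 6.32 and 6.54 in right lungs against 9.77, 10.18 and 9.61 in left lungs, -3.30 ± 0.39 (adjusted p = 1e-05, 9.88-fold). It was the only gene lower by at least 8-fold. Zbtb7a, a transcriptional repressor, was at 7.45, 7.58 and 7.66 in right lungs against 10.59, 10.24 and 10.50 in left lungs, -2.88 ± 0.18 (adjusted p = 2.3e-08, 7.34-fold). Syne1, a nuclear envelope spectrin-repeat protein, was at 6.81, 6.58 and 5.81 in right lungs against 9.35, 9.15 and 9.02 in left lungs, -2.77 ± 0.19. Each of these had 1 kept probe, and none of their groups overlapped. Thsd4, an extracellular matrix protein, had -2.24 and -2.29 by its 2 probes, whereas Sepp1, the selenium carrier selenoprotein P, had -2.16 and -0.59, and Gsn, the actin severing protein gelsolin, -2.02 and -0.97.

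Probes of 1 gene often differed in size. Of 231 higher genes with 2 or more kept probes, 88 (38.1%) had every probe called, and of 295 lower genes 123 (41.7%). For 26 genes probes were called in both directions, such as Eif4g2, a translation factor (1.21 and -1.44), and Itgb1, the integrin beta 1 chain (0.72 and -1.12). Clone or predicted names made up 17.7% of higher genes and 39.2% of lower genes, against 27.1% of all genes tested.

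Transcripts of tissues outside the lung parenchyma were higher in the right lungs as well. Of 11 measured skeletal muscle genes 9 rose and none fell, with a median of 2.41. Tnni2, troponin I of fast skeletal muscle, was at 12.53, 13.36 and 12.78 in right lungs against 8.04, 8.57 and 7.06 in left lungs, 5.00 ± 0.58 (adjusted p = 9.9e-06, 32.0-fold). It had the highest ratio of all genes tested. Summed over the 21 skeletal muscle genes on the array, the normalized intensity was 51045, 83689 and 58364 in right lungs against 11107, 9995 and 11760 in left lungs, and 18 against 12 of the genes were detected on all 3 arrays of the side. Of 11 heart genes Myl3 alone rose by its brightest probe, and it is also made in slow skeletal muscle. Csrp3, another gene of the list, had a ratio of 0.59 by its brightest probe (adjusted p = 0.12). Its other kept probes rose by 0.96 (adjusted p = 0.022) and 0.97 (adjusted p = 0.033). The heart sum was 28002, 37219 and 40890 in right lungs against 27675, 20903 and 32400 in left lungs. The sides overlapped, with the right lung the higher in each pool. Myl3, at 11.87 in the right and 8.89 in the left lung of pool 16, is part of this sum. The median log2 ratio of the 11 measured heart genes was -0.29, 0.37 and 0.09 in pools 16, 17 and 18, so the right lungs were not higher throughout.

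Of 6 measured fat cell genes 4 rose, including Adipoq, adiponectin, by 2.30, and Cfd, adipsin, by 2.04. The sum of the fat list was 32830, 26173 and 23763 in right lungs against 19353, 16893 and 15919 in left lungs. Of 11 mesothelial genes 7 rose. Msln, mesothelin of the pleural lining, was at 11.54, 11.82 and 12.14 in right lungs against 8.25, 8.43 and 8.12 in left lungs, 3.57 ± 0.24 (adjusted p = 5.8e-08, 11.8-fold). Upk3b, a uroplakin of the same cells, was at 12.63, 12.71 and 12.66 in right lungs against 10.25, 10.18 and 10.25 in left lungs, 2.44 ± 0.20. No arrays of the sides overlapped for either gene. The mesothelial sum was 68492, 70662 and 74790 in right lungs and 32331, 35571 and 37043 in left lungs. Its brightest members were C3, given above as a complement gene, and the keratin Krt8, at 13.59, 13.68 and 13.63 in right lungs. They weigh most in the sum, which is therefore no measure of the pleural lining alone. C3 is also among the 7 that rose.

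Genes not detected on one side were counted separately, since the filter on all arrays removes them. Of 30789 gene symbols on the array, 169 were detected on 3 of 3 right lung and 0 of 3 left lung arrays, and 203 the other way round. Many lay near the detection limit. The lower bound of the fold, defined below, reached 2 for 73 of the right-only and 12 of the left-only genes. Its median was 1.75 and 1.23. More probes were detected on the left lung arrays in general, so the 2 counts are not compared. The largest differences of the right-only set belonged to genes of stratified squamous epithelium. Lor, loricrin of the cornified envelope, was at 11.21, 14.98 and 14.06 in right lungs against 5.20, 5.38 and 4.88 in left lungs, where it was not above background, at least 251-fold higher. Pool 16 was much the lowest of the right lungs. Krt13, a keratin of stratified mucosa, was at least 169-fold higher, Krtdap, a keratinocyte differentiation protein, at least 90.1-fold, and Krt4, the partner of Krt13, at least 60.9-fold. These bounds set the mean of the right lungs against the higher of the probe's own level and the lowest detected level on each left array.

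A list of such genes, written after these values were seen, had 42 members on the array. Of these 31 were detected on all 3 right arrays, 33 on none of the left, and 6 passed the filter. Their summed intensity was 16960, 160576 and 89633 in right lungs against 4633, 5425 and 4970 in left lungs. The right lungs of day 1 had 83339, 72120 and 92255 and those of day 3 had 8922, 7470 and 65919. The right lungs of the 3 month old mice on day 7 had 154832, 134117 and 86265. The part of squamous, skeletal muscle, fat and mesothelial tissue in the results above was not tested. In pools 16, 17 and 18 the median log2 ratio was 2.65, 2.04 and 2.57 for mitosis, 1.17, 1.53 and 1.34 for interstitial collagens and 0.79, 0.66 and 0.79 for macrophage genes. Among right lungs, pool 16 had the lowest squamous, skeletal muscle and mesothelial sums and the highest fat sum. Of the left-only genes, Kitl, the ligand of the Kit receptor, was at 4.88, 4.94 and 4.92 in right lungs, not above background, against 7.87, 7.63 and 7.78 in left lungs, at least 4.64-fold lower.

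**Figure D3:**
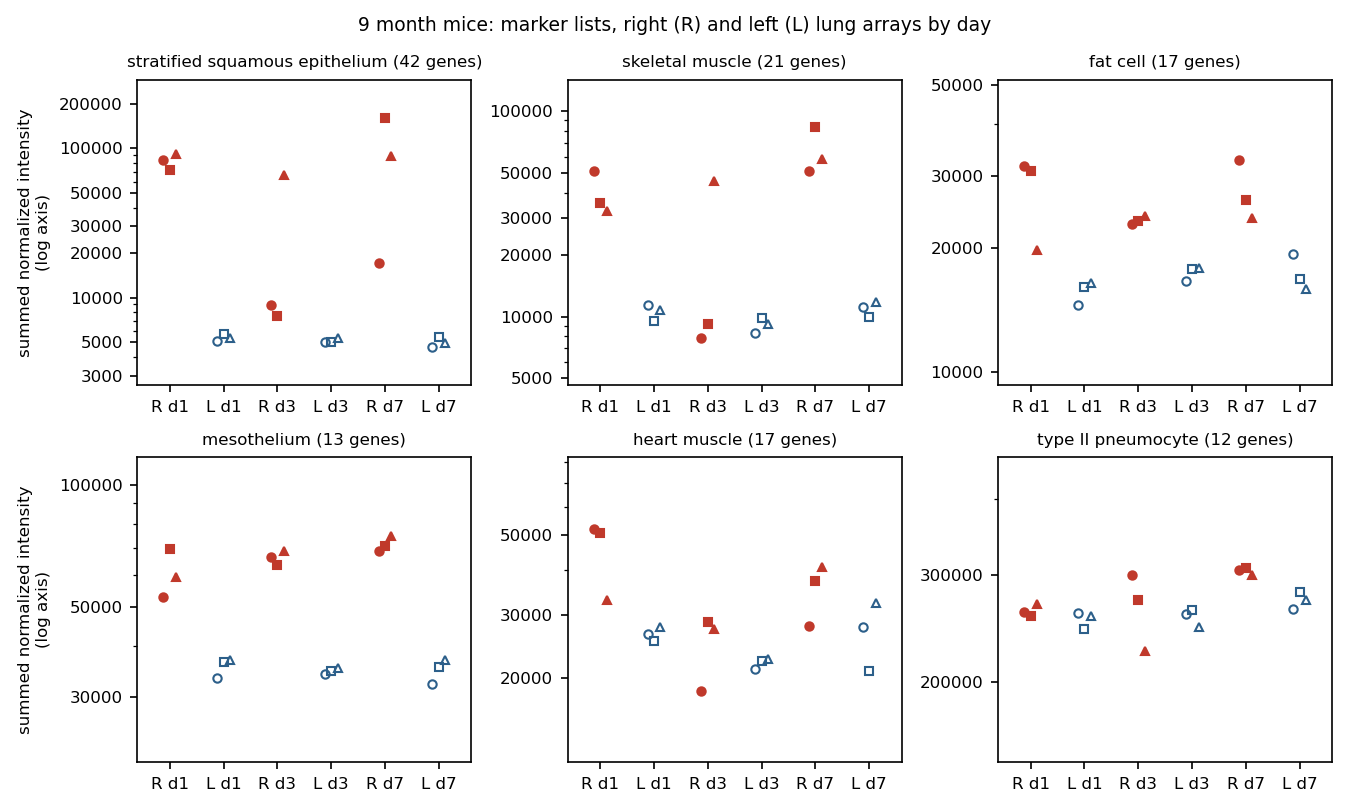
Summed normalized intensity (y axis, log scale) of 6 tissue marker lists on each array of the 9 month old mice, right lungs (R) beside left lungs (L) on days 1, 3 and 7 (x axis). On day 7 the squamous sum spans 16960 to 160576 in right lungs against 4633 to 5425 in left lungs, and skeletal muscle 51045 to 83689 against 9995 to 11760, while the type II pneumocyte sum is 300414 to 307882 against 263392 to 281371.

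The day 7 response was next set beside those of days 1 and 3 in 9 month old mice, which came from other pools and other chips, so day, cohort and chip cannot be told apart. Between days 7 and 1, 1679 genes (14.2%) differed in response, 929 (7.85%) higher and 750 (6.34%) lower on day 7. Between days 7 and 3, 142 genes (1.2%) did, 57 higher (0.482%) and 85 lower (0.718%). Counted in probes, the 2274 that differed from day 1 (14.4%) became 1357 without pool 17 and 1119 without pool 18. The 199 that differed from day 3 (1.26%) became 41 and 5. Of the 1180 genes higher on day 7, 437 (37.0%) were also higher on day 1 and 625 (53%) on day 3, which is 39.8% of the 1097 higher on day 1 (9.27% of genes tested) and 62.3% of the 1003 higher on day 3 (8.47%). Of the 1265 lower, 368 (29.1%) were also lower on day 1 and 534 (42.2%) on day 3, which is 24.6% of the 1495 lower on day 1 (12.6% of genes tested) and 42.0% of the 1271 lower on day 3 (10.7%).

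Mitosis was the clearest difference from day 1. The list median was -0.11 on day 1, 2.51 on day 3 and 2.40 on day 7, and all 21 measured genes were higher on day 7 than on day 1 and none on day 7 than on day 3. The ratio of Birc5 was -0.15 on day 1, 3.13 on day 3 and 2.57 on day 7. The day 7 minus day 1 difference of Birc5 was 2.72 (adjusted p = 6.9e-06). DNA replication had list medians of 0.30, 1.30 and 0.87 on days 1, 3 and 7. Of its 34 measured genes 9 were higher on day 7 than on day 1, beside 7.85% of all genes. Cdkn1a ran the other way by its brightest probe, with ratios of 2.16, 1.01 and 0.41 on days 1, 3 and 7. Its day 7 minus day 1 difference was -1.74 (adjusted p = 0.0038). The other 2 probes of Cdkn1a had right over left ratios of 1.13 and 1.17 on day 7, and their course over the days is not given here.

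Collagens were already high on day 1, with list medians of 1.13, 1.43 and 1.25 on days 1, 3 and 7. Col1a1 had ratios of 2.82, 3.41 and 3.17. Col14a1 was a later gene, at -0.30, 0.67 and 1.40, a day 7 minus day 1 difference of 1.70 (adjusted p = 6.6e-05). Lox was an early one, at 2.36, 1.92 and 0.74, a difference of -1.63 (adjusted p = 0.0067), and Timp1 had 4.23, 4.18 and 3.11, a difference of -1.11 (adjusted p = 0.028). Macrophage genes had medians of -0.06, 0.54 and 0.74, and 8 of the 21 were higher on day 7 than on day 1, beside 7.85% of all genes. Trem2 was at 0.48, 1.51 and 2.24. Of the 17 glucocorticoid targets 10 were lower on day 7 than on day 1, beside 6.34% of all genes, with medians of 0.04, -0.23 and -0.17.

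Differences from day 3 were few. Of the 20 largest differences, 18 lost the call without pool 18, 12 without pool 17 and 3 without pool 16. C1qtnf3, a secreted C1q-like protein, was among the largest, at 7.04, 7.64 and 7.69 in day 7 right lungs against 5.94, 5.71 and 5.61 in left lungs, with ratios of -0.10 on day 1, -0.83 on day 3 and 1.71 on day 7. Its day 7 minus day 3 difference was 2.54 ± 0.28 (adjusted p = 0.00056). Alas2, the haem synthesis enzyme of red cell precursors, had ratios of -1.04, -2.17 and -0.08 on days 1, 3 and 7. Ezh2, a histone methyltransferase of dividing cells, had -0.17, 1.29 and -0.43, the day 7 value not being called.

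**Figure D4:**
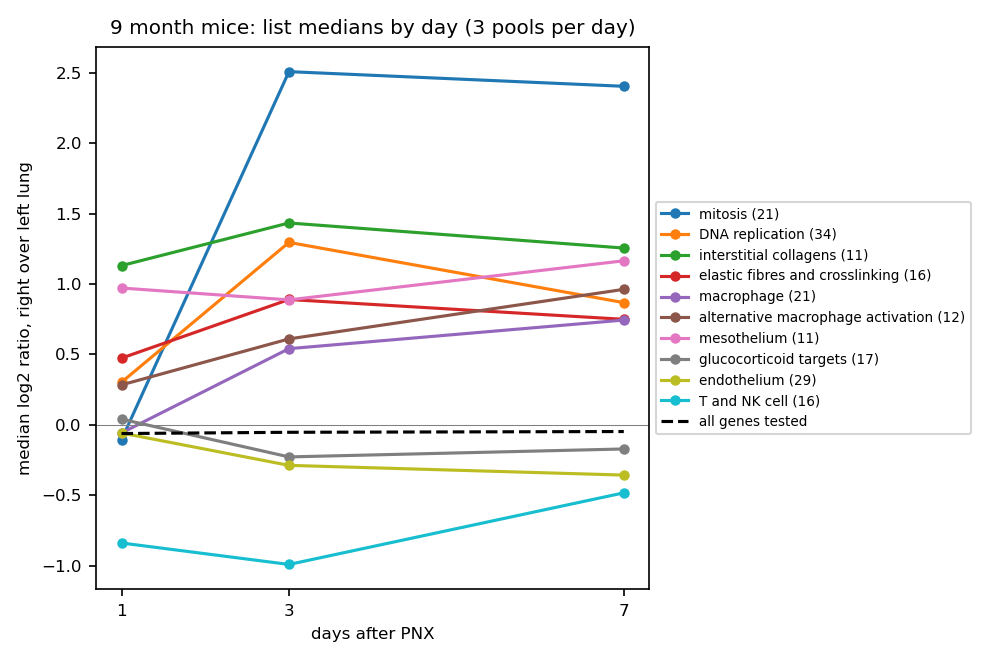
Median log2 ratio of right over left lung (y axis) of the measured members of each gene list on days 1, 3 and 7 after PNX (x axis) in 9 month old mice, with all genes dashed. Mitosis lies at -0.11, 2.51 and 2.40, interstitial collagens at 1.13, 1.43 and 1.25, and macrophage genes at -0.06, 0.54 and 0.74.

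The study asked whether the response changes with age, and day 7 arrays of both ages lay on the same 2 chips, in different positions. No gene passed for the 9 month minus 3 month difference (0 of 11835, 0%, by limma), and 403 genes (3.41%) had an unadjusted p under 0.05. The median 95% interval of a gene's difference reached 0.43 on either side. The ratios of the ages correlated over genes at 0.909. Of the 1180 genes higher in 9 month old mice 864 (73.2%) were also higher in 3 month old mice, which is 74.2% of the 1165 higher there (9.84% of genes tested). Of the 1265 lower genes 850 (67.2%) were lower in 3 month old mice too, which is 72.2% of the 1178 lower there (9.95%). None was called in opposite directions.

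Among the genes with the smallest unadjusted p, Col3a1 had a ratio higher by 1.16 in 9 month old mice (95% interval 0.52 to 1.80), Gpnmb by 0.85 (0.42 to 1.28) and Cd68 by 0.70 (0.38 to 1.01). All had an adjusted p of 0.99983. For other matrix and growth genes the difference was 0.80 ± 0.29 for Col1a1, 0.12 ± 0.60 for Tnc, 0.38 ± 0.36 for Lox, 0.24 ± 0.17 for Tgfb3, -0.23 ± 0.40 for Tnfrsf12a and 0.32 ± 0.24 for Birc5 (SE). Arg1 had 1.49 ± 0.49, Tk1 0.99 ± 0.39 and Retnla 1.01 ± 0.46. Without pool 17, 2 genes passed: Retnla with a difference of 1.89 (adjusted p = 0.0014) and Mmp13, a collagenase, with 1.44 (adjusted p = 0.018). Mmp13 was at 8.70, 7.22 and 8.56 in 9 month right lungs against 6.88, 7.07 and 7.12 in left lungs, so that pool 17 lay close to the left lungs.

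**Figure D5:**
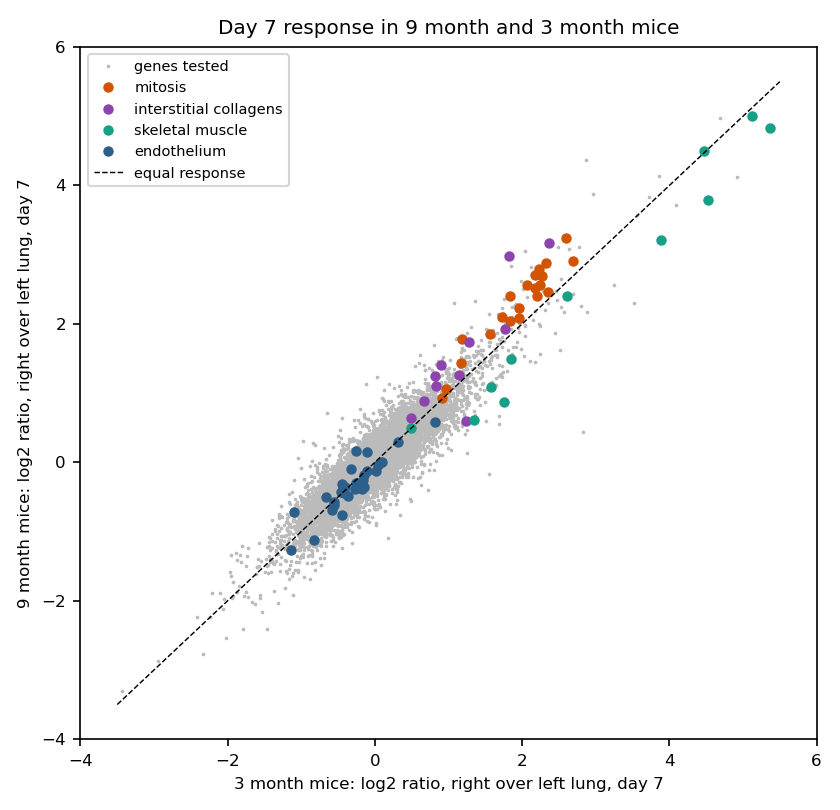
Log2 ratio of right over left lung on day 7 in 9 month old mice (y axis) against 3 month old mice (x axis) for all genes tested, with members of the main lists coloured and a dashed line of equal ratios. The points follow the line (correlation over genes 0.909), and no gene passed the test of the age difference.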

How the data were processed

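RNA of whole lung tissue was hybridised to Illumina MouseWG-6 v2 arrays, 36 in all. The deposited values are, per probe, a bead intensity with background already subtracted and a detection p-value, both made by the authors. The authors also deposited log2 values, background corrected and quantile normalized by their methods, which served as an alternative. The submitters' processing notes name RMA, lumi and limma. The supplementary tables of fold changes and p-values were not used.

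From the intensities, background was corrected with neqc of limma (R 4.3.3, limma 3.58.1, offset 16, negative controls inferred from detection p-values), followed by quantile normalization and log2. A probe was kept if its detection p was below 0.05 on each of the 36 arrays, and the kept probe with the highest mean stood for a gene. The log2 ratio of right over left lung of each pool was fitted in limma over the 18 pools in 6 groups of age and day, which share 1 estimate of the spread (12 residual and 4.78 prior degrees of freedom). Differences between days and ages were contrasts of that fit, with the change of at least 1.5-fold required on either day or in either age. Adjustment was by Benjamini-Hochberg across the probes kept. Left and right lungs are paired because the labels give them to the same mice. The correlation of their deviations from the group means was -0.05 to 0.06 in pools 16 to 18.

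Genes named are the 15 most changed per direction among genes called with 1 sign in all pools, up to 6 called members of each list with the smallest p, defining members of cell type lists, genes the study names, the 10 per direction that differed most between days, the 5 per direction with the smallest p between ages, and the 10 with the largest bound among genes detected on 1 side. Others, such as Top2a, Cdc2a, Rrm1, Ncaph, Ccnd1, Eif4g2 and Itgb1, and the squamous list were chosen after their values were seen. The comparison, the lists and the genes were chosen with earlier results of these data known, so lists are described by counts and medians and not tested. Gene symbols are those of the array, of which 21918 of 30789 matched a RefSeq symbol or synonym of GRCm38.p6. Promoter sequences are from RefSeq. The results of 2 genes are not reported here. The fit was tested on simulated data. Alternatives covered background correction, scaling, the detection filter, the fold threshold, the samples in the fit, the baseline, the pairing and each pool left out.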

Additional observations from a re-analysis of the deposited data

Results flagged for a closer look

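The 39 results below are genes whose response in 9 month old mice differed between days by limma's contrast of the difference itself (Benjamini-Hochberg adjusted p). They are given as day 7 minus day 1 or day 3 in log2 ratio, and are the 10 largest per direction and comparison, leaving out clone and predicted names and 1 gene that is not reported here.

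Higher on day 7 than on day 1 were genes of mitosis and chromosome segregation. The difference was 3.24 for Pbk (adjusted p = 3.7e-05), 3.17 for Prc1 (1.3e-05), 3.04 for Cdkn3 (0.00024), 3.04 for Kif22 (0.00026), 3.03 for Spag5 (1.2e-05), 2.87 for Nusap1 (1.2e-05) and 2.87 for Cdca3 (8.7e-05). It was 2.72 for Birc5 (6.9e-06), 2.70 for Plk1 (0.00014) and 2.67 for Cdca8 (0.00036).

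Lower on day 7 than on day 1 were Angptl4, an inhibitor of lipoprotein lipase (-2.67, adjusted p = 0.0033), Pdk4, a kinase that restrains pyruvate oxidation (-2.57, 0.0053), and Cav2, a caveolar protein (-2.42, 0.0091), whose call was lost without pool 18. Plat, the tissue plasminogen activator, had -2.27 (0.00041), Syne1 -2.14 (0.00019), Zfp641 -2.09 (0.00074) and Map3k6 -2.08 (0.0053). Akp2, alkaline phosphatase, had -2.04 (0.0046), Lpp -1.99 (0.00045) and Ptprg -1.99 (0.00032).

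Higher on day 7 than on day 3 were C1qtnf3 (2.54, adjusted p = 0.00056), Alas2 (2.09, 0.0091), Kcnc4 (1.91, 0.0097) and Tff2, a trefoil factor of mucosa (1.88, 0.012). Cdh16, a cadherin, had 1.76 (0.00056), Rpl3l 1.63 (0.039), Slc16a11 1.45 (0.045), Pgc, a pepsinogen made in type II pneumocytes, 1.45 (0.045), and Dgat2, an enzyme of triglyceride synthesis, 1.36 (0.045).

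Lower on day 7 than on day 3 were Ezh2 (-1.72, adjusted p = 0.0068), Selp, the selectin of platelets and endothelium (-1.72, 0.016), Csnk2a1-rs3 (-1.69, 0.021), Ankhd1 (-1.66, 0.0068) and Lpp (-1.51, 0.022). Syne1 had -1.50 (0.016), Bach1, a repressor of haem oxygenase, -1.46 (0.046), Psmb1 -1.43 (0.034), Zbtb38 -1.39 (0.045) and Cbx5 -1.37 (0.032). Of the 20 largest differences from day 3, 18 lost the call without pool 18, 12 without pool 17 and 3 without pool 16.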

How the results depend on the processing

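Counts of probes called are set beside 3415 for right over left lung on day 7, 2274 for day 7 minus day 1, 199 for day 7 minus day 3 and 0 for age. For right over left lung, the deposited log2 values gave 1965, a 2-fold threshold 1018 (504 higher and 514 lower, against 1511 and 1904 at 1.5-fold) and no fold threshold 6154. For day 7 minus day 1, a 2-fold threshold gave 897. For day 7 minus day 3, a 2-fold threshold gave 114, a looser filter of 3 detected arrays 77, no filter at all 71, and leaving out the day 3 pools 7, 10 and 12, an alternative chosen after seeing the data, 47. Without the pairing of left and right lungs (no replicate block) the counts were 3453, 2511, 382 and 0. Leaving out 1 pool gave 2750 to 3518, 1119 to 2317, 5 to 201 and 0 to 2. In the order given, further counts were 3622, 2291, 188 and 0 with no background correction, and 3484, 2196, 208 and 0 with scaling to the 75th percentile. They were 2901, 2099, 245 and 0 with an offset of 50, and 2959, 2058, 208 and 0 with detection p under 0.01. Right over left lung alone gave 5006 with the looser filter of 3 detected arrays and 4661 with no filter. With the mean of the 9 left lungs as baseline it gave 3576. The cause of these movements was not tested, apart from what a threshold or fewer samples does by construction. No named call changed direction. Of 286 named genes called on day 7, 150 were called in the same direction under every alternative that kept their probe, and 132 lost the call at 2-fold. The filter at a detection p under 0.01 kept 265 of the 286, and the others could not be checked there.

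The comparison rests on 3 pools of 2 mice. Side of the lung, chip, operation and time cannot be told apart between right and left lungs, and neither can position on the chip and age. Pooling hides the spread between single mice, so p-values measure the spread between pools. Probes near background compress ratios, and probes of 1 gene can read different transcripts. Array symbols are old, and probes of close relatives such as the Lce genes were not checked for cross-hybridisation. Signal over background, with 45.9 to 48.8% of probes detected on the 6 arrays, limits what can be seen of genes expressed at a low level.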

Other observations

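Over all genes tested 9.97% were higher and 10.7% lower in right lungs on day 7, to be set beside the counts here. Of 62 measured genes of the respiratory chain and ATP synthase 7 were higher and none lower, with a median log2 ratio of 0.06. Of 56 ribosomal protein genes 3 were higher and 2 lower, and of 29 proteasome genes 3 were higher and none lower. Of 28 interferon response genes 2 were higher and 3 lower, with a median of -0.07. Among 21 fibroblast and pericyte genes 5 were higher and 4 lower: Npnt, the integrin ligand nephronectin, was at 9.71, 9.42 and 9.73 in right lungs against 7.63, 7.16 and 7.76 in left lungs, a ratio of 2.11 ± 0.36 (adjusted p = 0.00029), and Scube2, a secreted protein, had a ratio of -1.69 (adjusted p = 3.8e-05). Fscn1, the actin bundling protein fascin, was at 10.52, 10.16 and 10.17 in right lungs against 8.02, 7.90 and 7.80 in left lungs, 2.38 ± 0.21 (adjusted p = 8.5e-07).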
